A study of Homo sapiens with 12 samples.

Results

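EPCAM, CEACAM6, ESRP1, AP1M2, KRT7 and KRT19 are 6 of the 770 genes of a NanoString panel of tumour progression, chosen by name as genes of epithelial identity and followed through all 3 tables that the authors deposited. They were chosen with their values in these tables known, so their values are given as a description and no test of them is made here. The cells were HCT-116, an established line from a human colorectal carcinoma, and each group holds 3 of the 12 samples. The treated groups received heteronemin, tetrac, or heteronemin and tetrac together for 24 h, and were compared with the group labelled control. Heteronemin is a sponge natural product, a marine sesterterpenoid, and tetrac (tetraiodothyroacetic acid) is the deaminated form of the hormone thyroxine. The labels give neither doses nor what the control cells received. Whether the 3 samples of a group are separate cultures is not stated, so the authors' p-values may measure technical spread only, and they come from a single cell line.

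The series' title concerns signalling through the EGF receptor and proliferation, and the panel measures neither. A NanoString count is the number of fluorescent barcodes seen on probes bound to a transcript, so it is set by the probe as well as by the transcript. Ratios are taken here within a gene. Counts are compared between genes to group those of like count, which need not be alike in transcript level. The unit throughout is the authors' mean normalized count of a group. The lowest value in the tables was 33 and is called the floor. A gene was called higher or lower where the unadjusted p in the authors' deposited table was under 0.05. The tables hold 1 mean per group, so no SD, and no value of a single sample, can be set beside a mean. The heteronemin group had 70 genes at the floor, the tetrac group 61 and the combination 90, against 279 in control. Many genes at the floor in control shared a p of 0.42 in the authors' deposited table after tetrac and under the combination, such as LUM and TIE1. A mean above the floor may rest on 1 sample of a group, which the means cannot show. The RNA came from whole cultures, in which a change in the share of cells that express a gene and a change in RNA per cell cannot be told apart.

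Epithelial cells are held together by adhesion molecules, are polarised between an apical and a basolateral side, and carry a cytoskeleton of keratins. EPCAM and CEACAM6 sit at the cell surface, ESRP1 sets the epithelial pattern of alternative splicing, AP1M2 belongs to the machinery that sorts proteins to the basolateral membrane, and KRT7 and KRT19 are keratins of simple epithelia. Cells that lose the epithelial state typically lose several of these transcripts, and repressors such as SNAI1 and ZEB1 act on genes of this class.

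The 6 genes split into a pair that started near the floor and was higher after treatment, and 4 genes with large counts that were lower or close to control. After heteronemin, KRT7 was 2.46-fold and CEACAM6 2.45-fold above control, AP1M2 was at 0.668 of it, and EPCAM, ESRP1 and KRT19 were 1.29-fold, 1.13-fold and 1.05-fold below it. After tetrac the ratios to control ran from 0.858 for KRT19 to 1.27 for CEACAM6. Under the combination KRT7 was 1.78-fold above control and AP1M2 at 0.717 of it. No group mean of the 6 genes was at the floor, which does not show that each sample was above it.

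**Figure D1:**
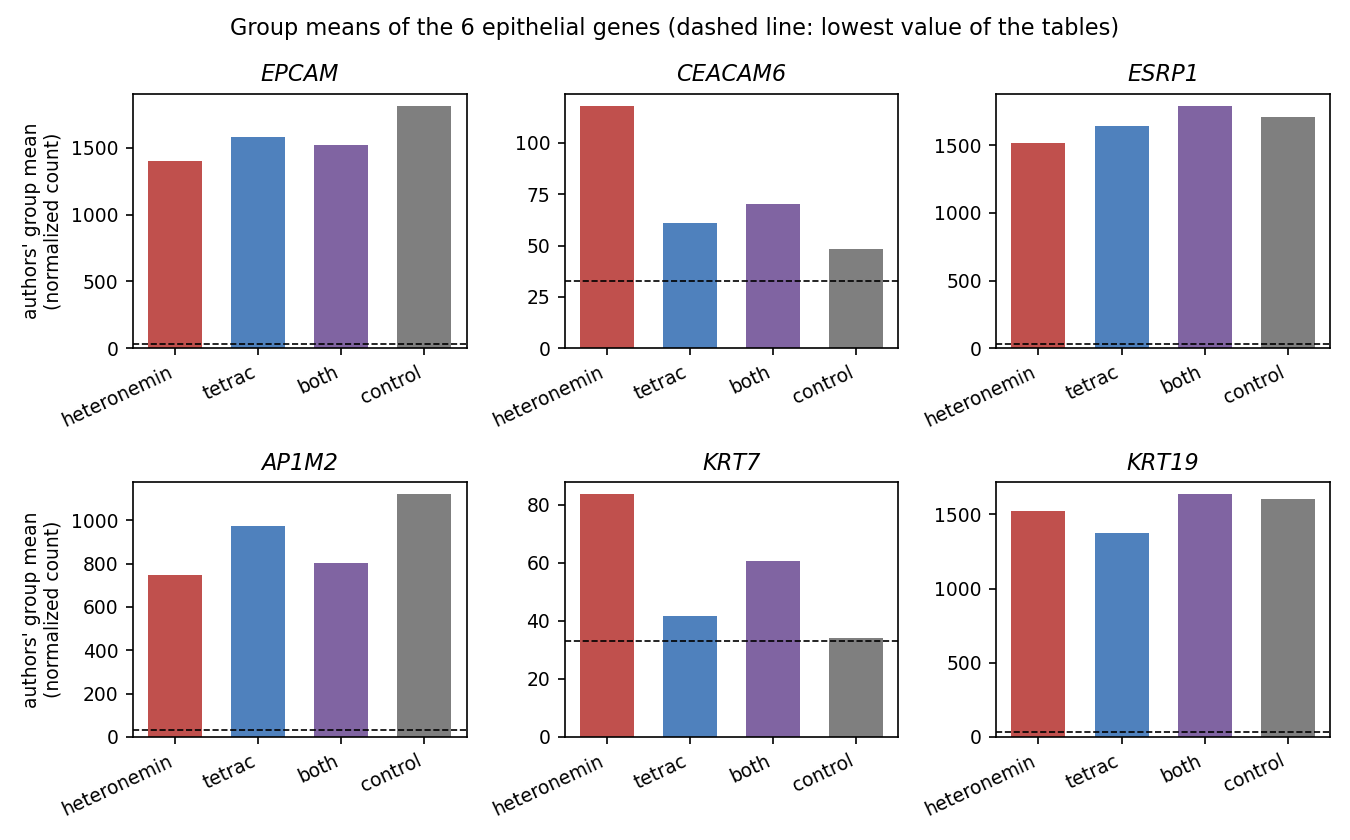
Group means of the 6 genes, in normalized counts on a linear axis from 0, for heteronemin, tetrac, both compounds and control; bars are the authors' means of 3 samples and carry no error because values per sample were not used. The dashed line is the floor of 33, which the control mean of KRT7 (34.09) nearly touches, while EPCAM, ESRP1, KRT19 and AP1M2 lie far above it.

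EPCAM encodes the epithelial cell adhesion molecule, a surface glycoprotein widely used to recognise carcinoma cells. Its mean normalized count was 1402.5 after heteronemin, 1581.21 after tetrac and 1519.81 under the combination, against 1814.19 in control. All treated means were thus below control, with heteronemin the lowest. The log2 ratio to control was -0.37 after heteronemin, -0.20 after tetrac and -0.26 under the combination. The p in the authors' deposited table was 0.1, 0.37 and 0.13 in that order, so EPCAM was called in none of the 3 tables. The 51 genes nearest to EPCAM in control mean had a median log2 ratio of -0.38, -0.17 and -0.25 in the same comparisons, within 0.04 of EPCAM each time.

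CEACAM6 encodes a member of the carcinoembryonic antigen family that is anchored to the membrane by a lipid and is raised in many colorectal tumours. Its mean normalized count was 118.14 after heteronemin, 61.02 after tetrac and 70.11 under the combination, against 48.13 in control. Heteronemin alone stood apart from the other groups, and the combination lay nearer to tetrac than to heteronemin. The log2 ratio to control was 1.30 after heteronemin, 0.34 after tetrac and 0.54 under the combination. The p in the authors' deposited table was 0.02 for heteronemin, 0.58 for tetrac and 0.19 for the combination. The other CEACAM genes of the panel were near the floor: CEACAM1 was at 51.98 after heteronemin against 33.06 in control, and CEACAM5 at 50.32 after heteronemin against the floor in control, neither of them called.

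ESRP1 encodes an RNA-binding protein that promotes the epithelial isoforms of transcripts such as those of FGFR2, CD44 and CTNND1. Its mean normalized count was 1514.62 after heteronemin, 1641.22 after tetrac and 1792.53 under the combination, against 1711.89 in control. The single compounds lay below control and the combination above it, all within 1.18-fold of each other. The log2 ratio to control was -0.18 after heteronemin, -0.06 after tetrac and 0.07 under the combination, and the p in the authors' deposited table was 0.23, 0.66 and 0.53. Centred on the panel genes averaging 100 or more over the 4 groups, the ratios for heteronemin and tetrac turned to 0.01 and 0.04. The ratio under the combination stayed positive in every setting tried.

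AP1M2 encodes the mu1B subunit of the clathrin adaptor AP-1, the form found in polarised epithelial cells. Its mean normalized count was 749.34 after heteronemin, 975.37 after tetrac and 803.27 under the combination, against 1120.95 in control. Both groups that received heteronemin lay below tetrac, and tetrac below control. The log2 ratio to control was -0.58 after heteronemin, -0.20 after tetrac and -0.48 under the combination. The p in the authors' deposited table was 0.01, 0.3 and 0.03, and AP1M2 was the 1 member called lower. It kept a negative ratio under every scaling and level correction tried against control, from -0.22 to -0.50 after heteronemin.

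The stretches of genome before AP1M2 and CEACAM6, the members called in opposite directions after heteronemin and those for which a promoter sequence was at hand, are shown with their E-boxes. An E-box (CANNTG, the same on both strands) is the motif class to which SNAI1 and ZEB1 are known to bind, with CACCTG on either strand as the typical form. Each run is 300 bases of RefSeq sequence on build GRCh38.p14, 250 before and 50 after the gene's start, written 5′ to 3′ along the gene, with every CANNTG in capitals. AP1M2 lies on the minus strand at chr19:10587263-10587562 and CEACAM6 on the plus strand at chr19:41755280-41755579.
AP1M2: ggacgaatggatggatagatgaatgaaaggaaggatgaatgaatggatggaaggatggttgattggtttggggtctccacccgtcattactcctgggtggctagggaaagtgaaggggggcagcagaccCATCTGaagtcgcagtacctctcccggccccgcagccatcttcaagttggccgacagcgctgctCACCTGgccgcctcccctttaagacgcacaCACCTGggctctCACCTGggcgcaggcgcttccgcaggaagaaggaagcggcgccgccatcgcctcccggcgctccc
CEACAM6: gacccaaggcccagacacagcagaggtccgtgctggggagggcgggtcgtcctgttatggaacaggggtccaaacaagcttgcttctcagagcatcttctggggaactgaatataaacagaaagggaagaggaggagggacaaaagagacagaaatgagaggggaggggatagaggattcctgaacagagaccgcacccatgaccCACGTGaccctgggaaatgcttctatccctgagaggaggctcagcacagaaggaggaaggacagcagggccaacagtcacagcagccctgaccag

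The AP1M2 window held 4 E-boxes, of which 3 read CACCTG, with their first base 57, 27 and 15 bases before the gene's start. The CEACAM6 window held 1 E-box, CACGTG, and no CACCTG on either strand. Of 35116 promoter windows of the same length, 20.6% held at least 1 CACCTG on either strand and 0.635% held 3 or more. At least 4 E-boxes of any form were held by 5.58% of the windows, and at least 1 by 68.7%. These matches describe the sequence, and binding was not measured. The part of the E-boxes in the ratios of AP1M2 and CEACAM6 was not tested.

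KRT7 encodes a type II keratin of glandular and ductal epithelia that normal colon largely lacks. Its mean normalized count was 83.71 after heteronemin, 41.66 after tetrac and 60.54 under the combination, against 34.09 in control. The control mean lay just above the floor of 33, so the ratios rest on a control level that the assay barely resolved. The log2 ratio to control was 1.30 after heteronemin, 0.29 after tetrac and 0.83 under the combination. The p in the authors' deposited table was 0.04, 0.46 and 0.02. KRT7 was thus the 1 member called higher in both groups that received heteronemin, and its mean there was 49.62 and 26.45 normalized counts above control.

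KRT19 encodes the smallest type I keratin and is abundant in intestinal epithelium. Its mean normalized count was 1523.28 after heteronemin, 1376.01 after tetrac and 1636.72 under the combination, against 1603.57 in control. The lowest mean was that of tetrac, which set KRT19 apart from EPCAM, ESRP1 and AP1M2, whose lowest mean was that of heteronemin. The log2 ratio to control was -0.07 after heteronemin, -0.22 after tetrac and 0.03 under the combination, with p = 0.63, 0.28 and 0.82 in the authors' deposited table. The heteronemin ratio turned to 0.01 when centred on the housekeeping genes and to 0.12 when centred on the panel genes averaging 100 or more. The 2 keratins among the 6 genes thus differed in their ratios, with KRT7 above control from a mean near the floor and KRT19 close to control far above the floor. Of the panel's other keratins, KRT14 was at the floor in all 4 groups, and KRT1, looked up after its values were seen, was at 35.25 after heteronemin, 34.02 after tetrac and the floor under the combination, against the floor in control.

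Of the 6 genes, 2 were called higher and 1 lower after heteronemin, against 11.2% and 15.9% of the 704 tested genes of the panel. After tetrac 0 of 6 were called, against 1.26% of 714 tested genes. Under the combination 1 was called higher and 1 lower, against 8.16% and 14.1% of 686 tested genes. Nothing is read from these counts, since the genes were chosen on these contrasts. After Benjamini-Hochberg adjustment of the p-values in the authors' deposited table over all tested genes, the smallest adjusted p of a member was 0.0828, that of AP1M2 after heteronemin, so 0 of 6 passed at 0.05 in any table.

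After heteronemin the direction of the 6 ratios went with the level in control. Of the 108 panel genes whose control mean was above the floor and under 60, to which KRT7 and CEACAM6 belong, 98 were above control after heteronemin, with a median log2 ratio of 0.86. Of the 74 genes with a control mean of 1000 or more, to which EPCAM, ESRP1, KRT19 and AP1M2 belong, 70 were below control, with a median of -0.42. The same medians were 0.34 and -0.17 after tetrac, and 0.46 and -0.30 under the combination. A mean in the low band cannot fall below the floor, and the control mean both sets the bands and divides every ratio. The part of this level trend in the members' ratios was not tested.

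**Figure D2:**
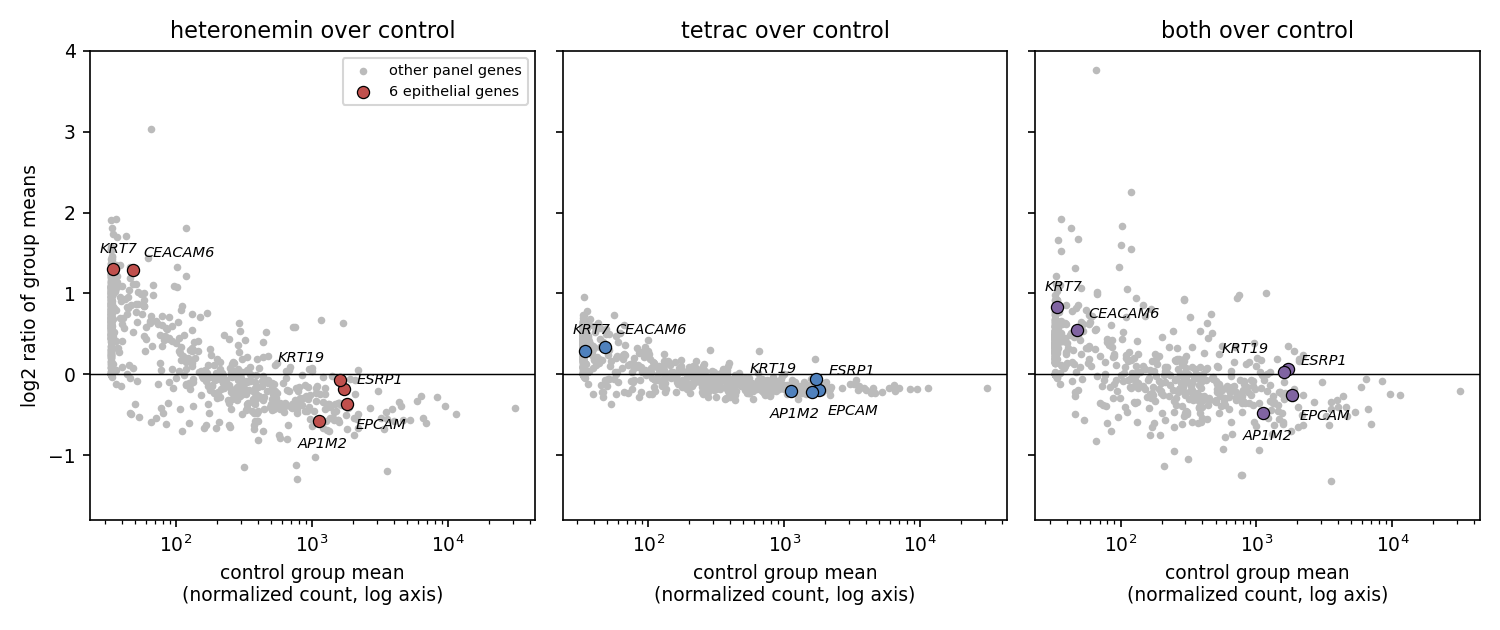
Log2 ratio of the treated over the control mean (vertical axis) against the control mean in normalized counts (horizontal log axis) for 769 panel genes, in 1 panel per treatment, with the 6 epithelial genes coloured and named. KRT7 and CEACAM6 sit in the low-count cloud above 0 and the other 4 among high-count genes, most of which lie below 0.

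Set beside the 51 genes nearest in control mean, CEACAM6 after heteronemin lay 0.48 above their median log2 ratio, at percentile 94.1, and KRT7 lay 0.52 above it, at percentile 84.3. Some of the 51 neighbours of KRT7 were genes tied at the floor in control and taken in order of gene name. Every value of KRT7 against neighbours in control mean depends on that order. Control mean as the basis was chosen after seeing the data. With neighbours taken by the mean over all 4 groups, the planned setting, which includes the treated values, KRT7 lay only 0.08 above the median, at percentile 74.5. In that setting CEACAM6 again lay 0.48 above its neighbours' median, at percentile 84.3. By control mean, AP1M2 lay 0.22 below its neighbours, at percentile 11.8, and EPCAM differed from its neighbours' median by 0.01. KRT19 and ESRP1 lay 0.33 and 0.23 above theirs, at percentiles 88.2 and 78.4. These 2 genes, slightly below control in the means, were above most genes of like level.

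After tetrac the distance from the median of the neighbours in control mean was 0.14 or less in size for each of the 6 genes. ESRP1, with a log2 ratio to control of -0.06, was at percentile 96.1 of its neighbours. Under the combination KRT7 lay 0.44 above its neighbours' median, ESRP1 0.34, KRT19 0.30 and CEACAM6 0.16, while AP1M2 lay 0.26 below it. EPCAM lay on its neighbours' median, with percentile 49.0. With neighbours taken by the mean over all 4 groups instead, KRT7 after tetrac lay 0.24 below their median.

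**Figure D3:**
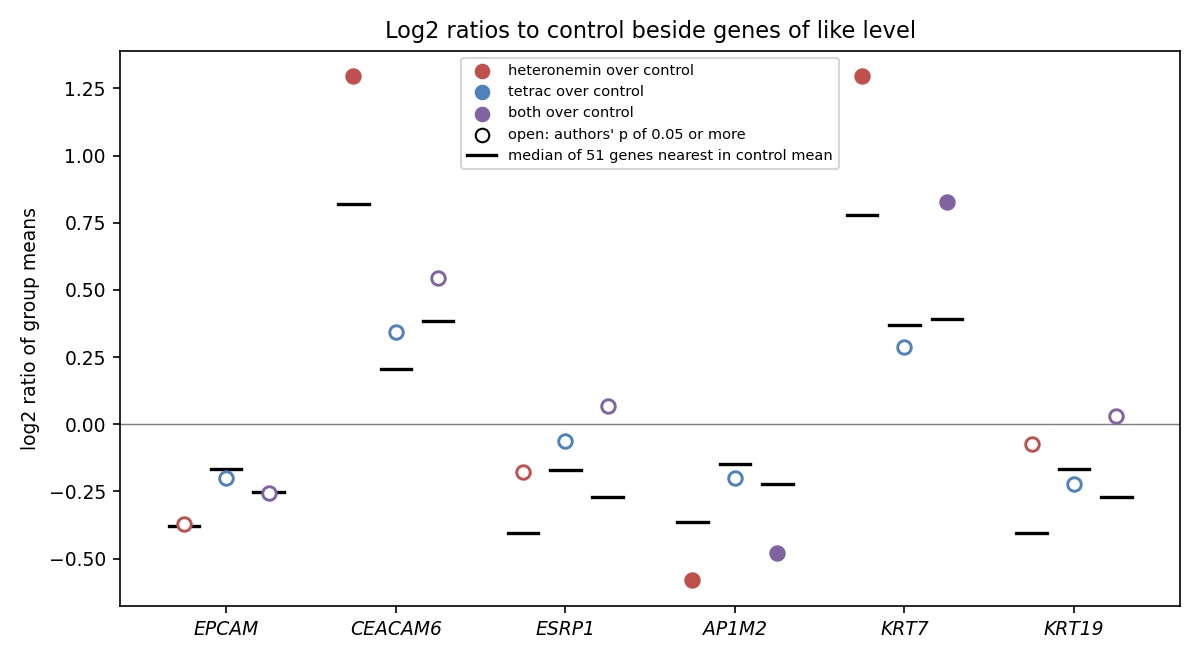
Log2 ratio to control of each gene (points, coloured by treatment, filled where the authors' p was under 0.05) beside the median log2 ratio of the 51 genes nearest in control mean (black bars). Control mean as the basis was chosen after seeing the data, and the bars of KRT7 include genes tied at the floor and taken by gene name. EPCAM lies on its bars, AP1M2 below them in all 3 comparisons, and the heteronemin points of CEACAM6 and KRT7 lie 0.48 and 0.52 above theirs.

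For the treatments set against each other the tables hold no p-value, so ratios of the means are given without a test. Under the combination CEACAM6 was 1.69-fold lower than after heteronemin alone, and KRT7 was 1.38-fold lower. CEACAM6 was the 1 member past 1.5-fold in this comparison, where 9.61% of the 770 genes were lower by that much and 0.26% higher. ESRP1, EPCAM, KRT19 and AP1M2 were between 1.07-fold and 1.18-fold higher under the combination than after heteronemin. The 51 genes nearest in mean level had a median log2 ratio of -0.32 for CEACAM6, whose own was -0.75, and of -0.65 for KRT7, whose own was -0.47.

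Under the combination relative to tetrac alone, KRT7 was 1.45-fold higher, KRT19 1.19-fold higher, CEACAM6 1.15-fold higher and ESRP1 1.09-fold higher, while AP1M2 was 1.21-fold lower and EPCAM 1.04-fold lower. No member passed 1.5-fold here, against 4.81% of the panel higher and 1.69% lower by that much. After heteronemin relative to tetrac, KRT7 was 2.01-fold and CEACAM6 1.94-fold higher, and they were the members past 1.5-fold, where 14.5% of the panel was higher and 1.69% lower by that much. AP1M2 was 1.30-fold lower after heteronemin than after tetrac. The heteronemin over tetrac ratio of KRT7 was at percentile 98.0 of the genes nearest in mean level and that of CEACAM6 at percentile 90.2.

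The log2 ratio of the combination was also set beside the sum of the ratios of the single compounds, which uses the control mean in all 3 terms and was not tested. For CEACAM6 the combination was at 0.54 against a sum of 1.64, and for KRT7 at 0.83 against 1.59. For EPCAM it was at -0.26 against -0.57, for AP1M2 at -0.48 against -0.78, for ESRP1 at 0.07 against -0.24 and for KRT19 at 0.03 against -0.29. All 6 ratios of the combination were nearer to 0 than the sum. The combination minus the sum was 0.30 to 0.32 for EPCAM, ESRP1, AP1M2 and KRT19, whose 51 neighbours in control mean had medians of 0.28 to 0.30. It was -0.76 for KRT7, against a neighbour median of -0.74, and -1.10 for CEACAM6, against -0.50.

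To place the 6 genes among other epithelial genes, a list of 93 was drawn up without them, of which 44 were on the panel. After heteronemin 6 of the 40 tested genes of this list rose and 6 fell, or 30% called, beside 27.1% of all tested genes. The median log2 ratio of the 44 genes was 0.01, and 0.11 over all 770 genes. Among the called genes with the largest changes, PTK6, an epithelial tyrosine kinase, was at 84.51 after heteronemin against 39.81 in control, 2.12-fold higher with p = 0.01 in the authors' deposited table. PRSS8, a membrane-anchored serine protease, rose to 116.65 against 58.34 in control, and OVOL2, a transcription factor that maintains the epithelial state, rose 1.80-fold. Each of these 3 genes had a control mean under 60, and their Benjamini-Hochberg adjusted p was 0.0828 to 0.130. The 3 largest falls, named after their values were seen, were those of SCNN1A, a subunit of the epithelial sodium channel, ST14, the membrane protease matriptase, and TSPAN1, a tetraspanin. SCNN1A was at 374.33 after heteronemin against 652.73 in control, ST14 at 640.17 against 995.36, and TSPAN1 at 55.38 against 84.73. At the authors' p under 0.01, 2 genes of the list were called, SCNN1A and TSPAN1, both lower.

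The rises and falls of the list also differed by level. Of the 18 listed genes with a control mean under 100, 4 rose and 1 fell after heteronemin; of the 26 with a control mean of 100 or more, 2 rose and 5 fell. Over the whole panel the counts were 54 and 7 below that level and 25 and 105 at or above it. By group, 2 of 14 tested adhesion and junction genes rose and 3 fell, 3 of 14 proteases, channels and signalling genes rose and 3 fell, and 1 of 5 transcription and splicing genes rose, beside 11.2% higher and 15.9% lower over all tested genes. Of 5 genes of epithelial trafficking, to which AP1M2 is closest in role, 0 were called after heteronemin, tetrac or the combination at the authors' unadjusted p, where 27.1%, 1.26% and 22.3% of all tested genes were called.

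After tetrac 1 of 41 tested genes of the list was called, or 2.44% beside 1.26% of all tested genes: the tight junction gene OCLN, at 229.23 against 258.12 in control (p = 0.02 in the authors' deposited table, 0.650 after Benjamini-Hochberg adjustment). Under the combination 4 of 40 rose and 6 fell, or 25% called, beside 22.3% of all tested genes, with a median log2 ratio of 0.02 over the list and 0.09 over all genes. TSPAN1 fell 1.63-fold, ST14 fell 1.56-fold and SCNN1A fell 1.51-fold, while PTK6 rose 1.54-fold. At p under 0.01 4 genes of the list were called under the combination, SCNN1A and, named after their values were seen, EVPL, TJP3 and TMC6, all of them lower. SCNN1A was at 433.07 under the combination, against 652.73 in control, with a p printed as 0. After Benjamini-Hochberg adjustment the p of TSPAN1, ST14 and PTK6 was 0.120 to 0.152 under the combination.

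**Figure D4:**
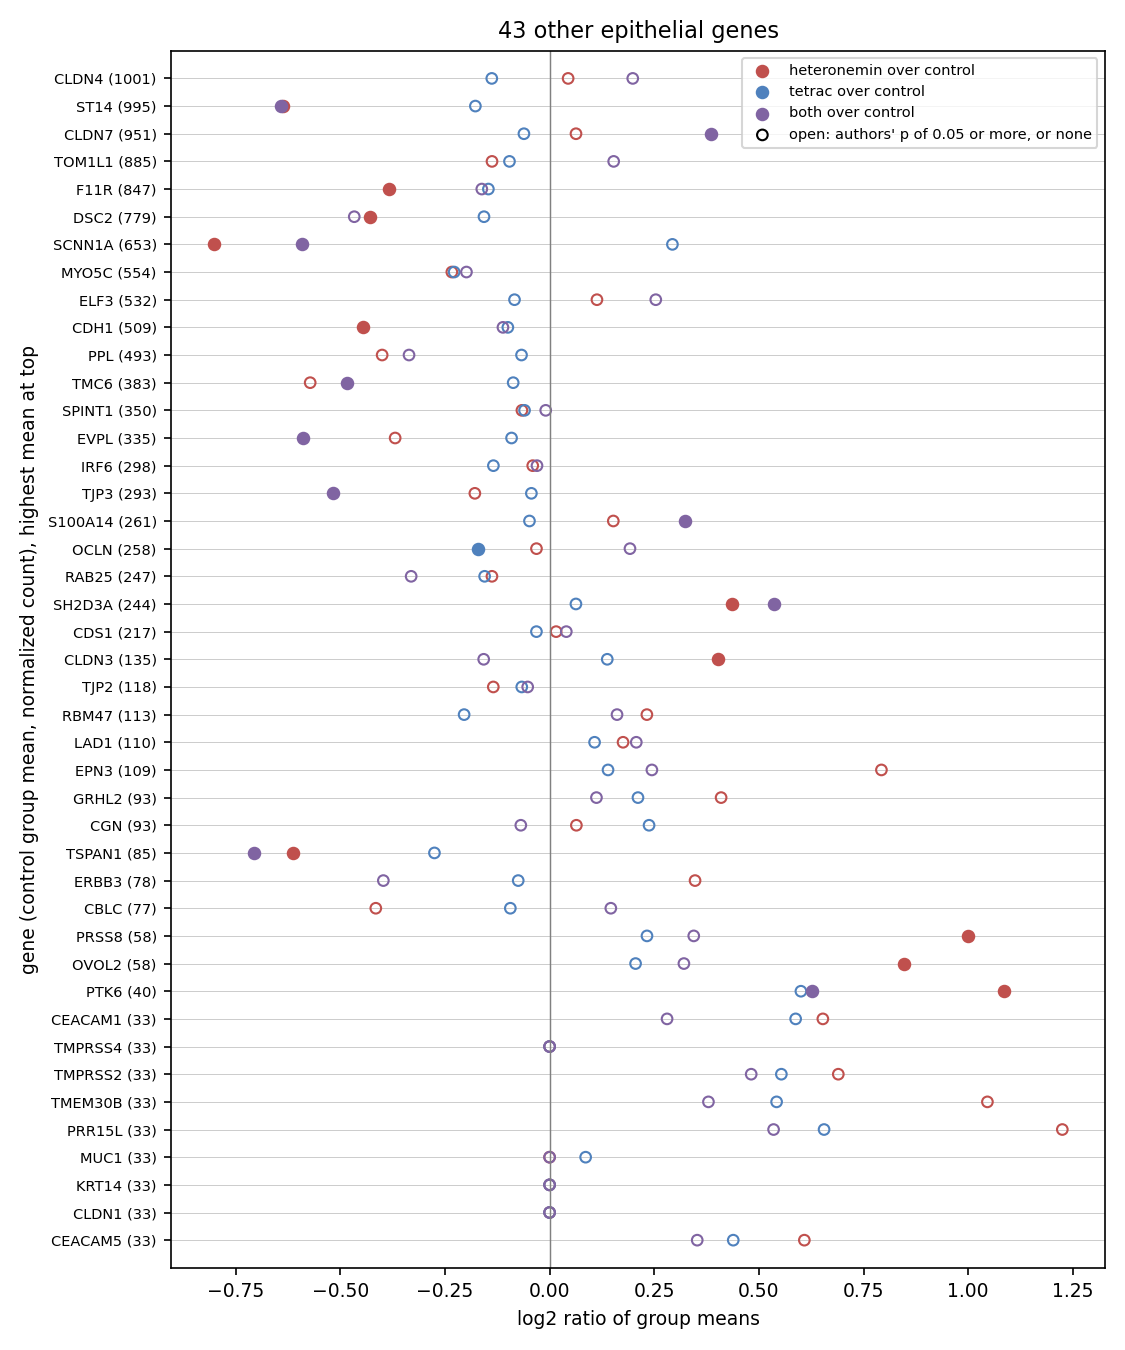
Log2 ratio to control (horizontal axis) of 43 other epithelial genes on the panel, ordered by control mean (in brackets, normalized counts), with filled points where the authors' p was under 0.05. The rises of PTK6, PRSS8 and OVOL2 after heteronemin lie among low-count genes, and ST14 and SCNN1A fall among high-count genes.

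The label of an epithelial carcinoma line was checked on marker genes. Besides EPCAM and KRT19, which are among the 6 genes, 4 epithelial markers were measured: CDH1, CLDN3, CLDN4 and CLDN7. All 4 were above the floor in every group, the lowest mean being that of CLDN3 under the combination, at 121.14. Of the 6 measured epithelial markers, 2 were called after heteronemin, where 27.1% of all tested genes were. CDH1 was lower, at 373.64 against 508.86 in control, and CLDN3 higher, at 178.47 against 135.11. Under the combination 1 was called, where 22.3% of all tested genes were: CLDN7, higher at 1243.84 against 951.36. Of 15 measured markers of endothelial, blood and stromal cells, 1 was at the floor after heteronemin, 2 after tetrac and 2 under the combination, against 11 in control. Their summed mean was 874.21, 663.31 and 755.98 in the treated groups, against 532.32 in control, where the floor alone makes up most of the sum. Most of the markers at the floor in control had p = 0.42 in the authors' deposited table after tetrac and under the combination. Their means there may rest on 1 sample of a group. Their median log2 ratio to control was 0.58 after heteronemin, and 14 of 15 were above control, as KRT7 and CEACAM6 were. The part of these markers in the ratios of KRT7 and CEACAM6 was not tested. Of the 15, 2 were called higher after heteronemin, against 11.2% of all tested genes: CD34, a marker of endothelial cells, was at 84.66 against 35.63 in control, and the collagen gene COL1A1 at 144.34 against 67.15. The markers above the floor in control were CD34, PECAM1 at 33.34, COL1A1 and DCN at 33.2.

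Among 456 other endogenous genes above the floor in control, the nearest in pattern to each member were found by Euclidean distance over the 3 log2 ratios to control. AP1M2 was closest to NME1, a nucleoside diphosphate kinase, at a distance of 0.020, and to CHD4, a chromatin remodeller, at 0.042. EPCAM was closest to the glycolytic enzyme ALDOA at 0.030 and to DENR, a translation factor, at 0.041. ESRP1 was nearest to HSPB1 at 0.056 and ITGA6 at 0.060, and KRT19 to SRC at 0.074 and PLAU at 0.075. The nearest genes to CEACAM6 were COMP at 0.051 and ACVR1C at 0.115, and those to KRT7 were ARHGDIB at 0.109 and ECM1 at 0.180. Between members the smallest distances were 0.194 for ESRP1 and KRT19 and 0.291 for CEACAM6 and KRT7, and the largest was 2.34 for AP1M2 and KRT7.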

How the data were processed

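Per the labels' protocols, total RNA was hybridised to the nCounter PanCancer Progression panel, and per the series' design text the raw counts were normalized with nSolver 4.0, using a positive control factor per sample and a further biological normalization. The authors deposited a signal, the mean normalized count of each group, in 3 tables of 770 genes. The authors deposited a score, the signed fold of treated over control mean, and an unadjusted p-value printed to 2 decimals, of a test that the sources do not name. Sample-level values were not analysed here, so depth is unknown and no SD or interval is given.

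From the means, log2 ratios were computed without pseudocount or filter. A gene was called at the authors' p under 0.05, and Benjamini-Hochberg adjustment ran over all tested genes of a table. Each gene was set beside the 51 genes nearest in control mean, a setting chosen after seeing the data. The planned setting took neighbours by the mean over all 4 groups, and was kept for ratios between treatments. Genes tied in level were taken in order of gene name. For KRT7 in control mean this drew in some of the genes at the floor. Named genes are the 6 members, up to 4 called genes of the other epithelial list per comparison with the largest absolute log2 ratio, and the 2 genes nearest each member in pattern; 1 gene that the rule names is not reported here. The members and lists were chosen with earlier results of these data known. The calling, the adjustment and the level correction were tested on simulated data. Python 3.11.15, numpy 2.4.6, scipy 1.17.1, pandas 2.3.3 and matplotlib 3.10.9 were used.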

Additional observations from a re-analysis of the deposited data

How the results depend on the processing

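No paired analysis was possible because the columns of the tables used here are group means and carry no replicate numbers; for the same reason leaving out each replicate was not run. Of 162 alternative log2 ratios of the members, 156 moved by less than 1.5-fold and 0 called ratios changed sign. No ratio to control of EPCAM, ESRP1, AP1M2 or KRT19 reached 1.5-fold, so these could fall to 0 without counting as moved. EPCAM after heteronemin went from -0.37 to -0.0054 by mean level within that limit. The ratios that moved further all subtract the median of genes of like level. After heteronemin CEACAM6 came to 0.48 with neighbours by mean level or control mean. KRT7 came to 0.0825 by mean level and 0.52 by control mean, a setting chosen after seeing the data. KRT7 came to 0.19 for the combination over heteronemin and 0.34 for heteronemin over tetrac. In all, 20 uncalled or untested ratios changed sign, 16 of them under level correction.

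Calls depended on the threshold. For heteronemin, 191 called genes became 41 at p under 0.01 and 41 by Benjamini-Hochberg adjustment as printed, 0 with the largest p that rounding allows, and 95 at 1.5-fold or more. For the combination, 153 became 48, 48, 0 and 69 in the same order, and for tetrac 9 became 0 under each. In the other epithelial list, the 12 called after heteronemin became 7 at a mean level of 100 or more, 7 at a control mean of 100 or more (added after seeing the data), 2 at p under 0.01, 0 of them higher, and 7 at 1.5-fold. The 10 called under the combination became 4 at p under 0.01, 0 of them higher, and 5 at 1.5-fold, and the 1 called after tetrac became 0 under both. The floor of 33 limits every ratio of KRT7.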
